A study of Mus musculus with 2 samples.

Results

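The Ifi200 genes, a cluster of interferon-inducible genes on mouse chromosome 1, were described by their RNA in immune cells of tumours. The members were 10 genes of this PYHIN cluster, chosen by symbol (Ifi203, Ifi204, Ifi205, Ifi206, Ifi207, Ifi208, Ifi209, Ifi211, Ifi213 and Mndal), out of 31053 genes. All 10 were found, and Ifi202b and Ifi214 of the same cluster are not among them. Both groups were CD45+ cells sorted from tumours of C57BL/6 mice. Mice of one group were labelled Ythdf2 cKO, a conditional knockout of Ythdf2 (a reader of methylated adenosine in mRNA that promotes its decay), and the others were labelled WT, with 1 droplet-based single-cell library per label. The sources used here do not give the Cre driver, the age, sex or number of the animals, or the tumour line.

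Ifi200 proteins belong to the PYHIN family, most of whose members combine a pyrin domain, which mediates protein contacts, with a HIN domain, which binds double-stranded DNA. They are known as sensors of foreign or displaced DNA and as regulators of transcription and of cell growth, and most of the mouse genes are induced by interferon. In tumours, DNA taken up by phagocytes is one known trigger of interferon production.

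In the library labelled cKO there were 11398 barcodes and 121321782 unique molecular identifiers (UMIs, each counted as 1 captured RNA molecule), and in the library labelled WT 14404 barcodes and 128952491 UMIs. Filters left 9865 and 12179 cells, whose median depth was 8480 and 5592 UMIs, and 43 barcode sequences occurred in both libraries. Cells were put in classes by marker genes counted in each cell, not by clustering, so that a class name stands for cells that passed its gate, and a class was compared if both libraries had 100 such cells or more, which 9 did. The gate for NK cells was widened after the data had been seen, because the gate planned first left 76 and 109 cells. No label had a second library, so no statistical test was possible: a ratio compares these 2 libraries, genotype and library cannot be told apart, and brackets give 95% intervals that cover counting error only.

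Ythdf2 itself went against the label. In macrophages the library labelled cKO had 478 CPM (UMIs scaled to the same total in every class; 459 to 496) against 77.1 CPM (73.2 to 81.2) for the library labelled WT, a ratio of 6.19. In monocytes the ratio was 7.80, in CD8 T cells 1.65 and in B cells 1.20 (0.782 to 1.85). Reads can come from a part of the transcript outside the deletion, so this level did not check the deletion. Why Ythdf2 RNA was higher in the library labelled cKO was not tested, nor was whether the labels match the libraries. The groups are called by their labels throughout.

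The members lie between positions 173468485 and 174031810 of chromosome 1 (GRCm38), a span of 563.326 kilobases with 20 annotated genes. In order along the chromosome, Ifi206 (ENSMUSG00000037849) is at chr1:173468485-173491041 and Ifi213 (ENSMUSG00000073491) at chr1:173566283-173599274, both on the minus strand. Ifi209 (ENSMUSG00000043263, chr1:173630917-173647928) and Ifi208 (ENSMUSG00000066677, chr1:173673675-173698395) are on the plus strand. The other 6 are on the minus strand: Ifi207 (ENSMUSG00000073490, chr1:173723427-173741747), Ifi204 (ENSMUSG00000073489, chr1:173747293-173766943), Mndal (ENSMUSG00000090272, chr1:173849126-173942491), Ifi211 (ENSMUSG00000026536, chr1:173896345-173913046), Ifi203 (ENSMUSG00000039997, chr1:173920407-173942672) and Ifi205 (ENSMUSG00000054203, chr1:174011998-174031810). The annotated span of Mndal covers Ifi211 and overlaps Ifi203 on the same strand.

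The promoters are shown because the genes are known interferon targets and the values of most of them move together. Of the 10 members, 9 had a RefSeq promoter entry (not Ifi204), a window from 250 bases before to 50 bases after the annotated start. The core of the interferon-stimulated response element, searched on both strands as GAAA, any 2 bases and GAAA again, was found in 8 of these 9 genes, the exception being Ifi209, against 3.99% of all 27025 genes in the table and 3.44% of its 32851 promoters. The core lay 35 to 73 bases before the start in 7 of these genes and 134 bases before it in Ifi205. Each line gives the core in capitals with 20 bases before and 21 after it, read 5′ to 3′ on the gene's strand (RefSeq, GRCm38.p6).
Ifi203 (minus strand, chr1:173942497-173942547): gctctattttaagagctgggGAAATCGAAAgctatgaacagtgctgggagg
Mndal (minus strand, chr1:173880193-173880243): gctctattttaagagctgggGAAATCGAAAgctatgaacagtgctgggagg
Ifi206 (minus strand, chr1:173491328-173491378): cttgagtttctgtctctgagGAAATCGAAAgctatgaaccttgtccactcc
Ifi208 (plus strand, chr1:173673587-173673637): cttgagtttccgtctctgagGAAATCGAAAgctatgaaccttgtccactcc
Ifi213 (minus strand, chr1:173599315-173599365): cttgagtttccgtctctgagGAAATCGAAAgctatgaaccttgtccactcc
Ifi205 (minus strand, chr1:174031859-174031909): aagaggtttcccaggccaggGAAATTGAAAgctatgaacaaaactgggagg
Ifi211 (minus strand, chr1:173913053-173913103): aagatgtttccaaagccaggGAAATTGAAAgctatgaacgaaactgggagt
Ifi207 (minus strand, chr1:173741820-173741870): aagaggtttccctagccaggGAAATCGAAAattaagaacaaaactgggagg

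These windows fell into 3 groups by sequence. Ifi203 and Mndal had the same 51 bases, as had Ifi208 and Ifi213, and Ifi206 shared 50 of 51 bases with that pair. Ifi205 shared 46 of 51 bases with Ifi211 and 45 of 51 with Ifi207. The variable letters of the core were TC in 6 genes and TT in Ifi205 and Ifi211. The gamma-activated sequence, searched as TTCNNNGAA on both strands, was found in 0 of the 9 genes and in 8.30% of all promoters. A match is a description of letters, not a site.

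Because members are close relatives, reads can match more than 1 of them, and the sources used here do not say how such reads were counted. Of the 100-base stretches of annotated Ifi211 transcripts, 56.9% also occurred in another gene of the cluster, most of them in Ifi205 (37.2%). In the first 300 bases of its transcripts, Ifi204 shared 79.6% of stretches, Ifi206 46.8% and Ifi208 39.3%. Ifi207 shared 0.79% over all its transcripts. In the last 300 bases the shares were 53.2% for Ifi211, 28.6% for Ifi205, 18.9% for Ifi209 and 0% for Ifi204 and Ifi206. The labels name a 5′ kit, but which end of the transcripts was read was not settled from the files. The values of Ifi211 are therefore uncertain as to which gene they belong to. Those of Ifi204, Ifi206 and Ifi208 are so if reads come from the start of transcripts, and those of Ifi205 and Ifi209 if they come from the end.

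Summed over the 10 genes, the family was highest in monocytes of both libraries and was higher in the library labelled cKO in all 9 classes. It stood at 4630 CPM (4603 to 4658) in monocytes of the library labelled cKO and 2463 CPM (2436 to 2491) in those of the library labelled WT, a ratio of 1.88 (1.86 to 1.90). The largest ratio was in macrophages, with 3072 CPM (3026 to 3119) for the library labelled cKO against 1065 CPM (1050 to 1079) for the library labelled WT, 2.89 (2.83 to 2.95), which was 1.34 (1.20 to 1.5) in macrophages without UMIs of the monocyte genes Ly6c2 and Ccr2. In type 2 conventional dendritic cells (cDC2) the sum was 2498 CPM against 1364 CPM, 1.83 (1.74 to 1.93).

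Lymphoid cells had smaller sums than the myeloid classes in the library labelled cKO, and than monocytes and cDC2 in the library labelled WT. The lymphoid ratios ran from 1.80 in regulatory T cells to 1.17 in gamma delta T cells. In regulatory T cells without UMIs of 5 myeloid genes the ratio was 1.11 (0.974 to 1.27). CD4 T cells of the library labelled cKO held 1888 CPM and those of the library labelled WT 1078 CPM, a ratio of 1.75 (1.64 to 1.87). For regulatory T cells the values were 1762 and 982 CPM, and for CD8 T cells 1326 and 805 CPM, a ratio of 1.65 (1.59 to 1.71). NK cells held 1233 CPM against 782 CPM (1.58, 1.52 to 1.63), B cells 1075 against 836 CPM (1.29, 1.16 to 1.43) and gamma delta T cells 1194 against 1017 CPM (1.17, 1.10 to 1.25). The order of classes differed between the libraries: macrophages ranked next to monocytes in the library labelled cKO, whereas in the library labelled WT their sum did not differ beyond counting error from that of CD4 T or gamma delta T cells.

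**Figure D1:**
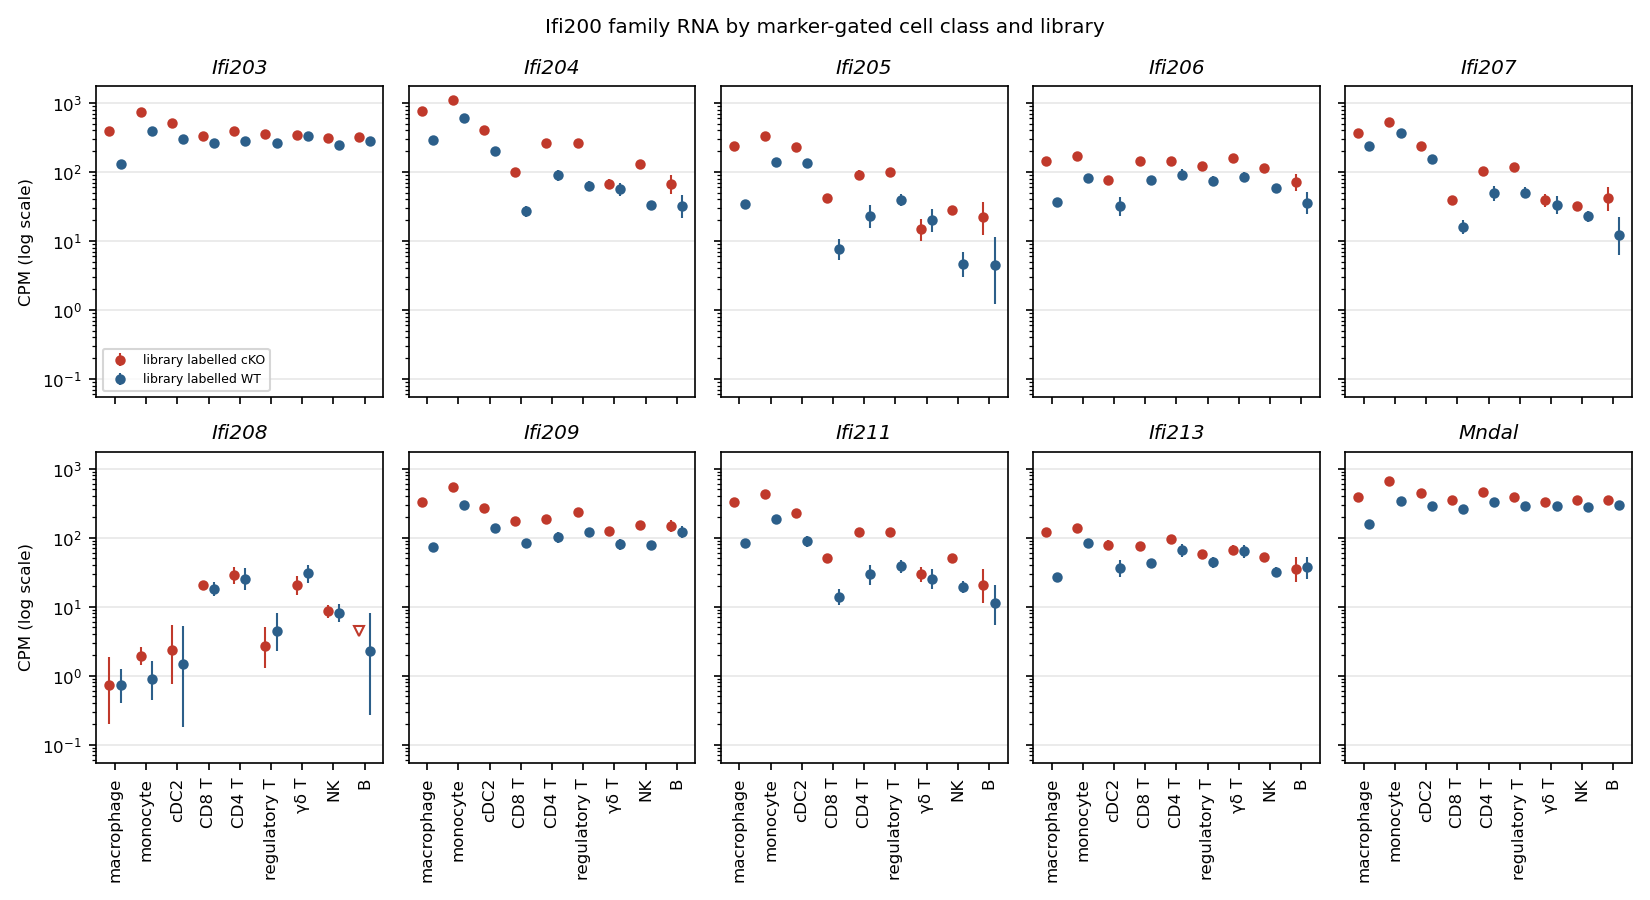
Level of each of the 10 members (CPM, log axis) in 9 marker-gated classes, red for the library labelled cKO and, to its right, blue for the library labelled WT; bars are 95% Poisson intervals and the open triangle marks the limit that a count of 0 UMIs allows. Ifi203 and Mndal are above 100 CPM in every class, and Ifi208 is detected mostly in T cells. Ifi204, Ifi207 and Ifi211 are highest in the 3 myeloid classes of both libraries. Ifi205 is so in the library labelled cKO. In the library labelled WT, Ifi205 in macrophages (34.2 CPM) is not above its level in regulatory T cells (39.5 CPM).

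A member was assessed in a class when it reached 10 CPM in either library, and called when its CPM differed at least 1.5-fold, with counts under 3 UMIs set to 3 for the call. Of 84 pairs of member and class assessed, 58 were higher for the library labelled cKO and 0 were lower. The interval lay wholly above 1 in 70 of the 84 pairs. No such share over all genes is given, so this count is not read as particular to the family. In macrophages 9 of 9 assessed members were higher and 0 lower, where 11.2% of the 7849 genes assessed in the same way were higher and 16.8% lower. The 6 monocyte markers summed to 3174 and 1046 CPM in these macrophages, 4 of them at least 1.5-fold higher. In macrophages without UMIs of Ly6c2 and Ccr2, 23 and 510 cells, the count of members higher was 5 of 9. No share over all genes is given for this smaller set, and the 11.2% belongs to all macrophages. In monocytes 8 of 9 members were higher and 0 lower, against 3.72% and 6.88% of 7356 genes. In cDC2 9 of 9 were higher and 0 lower, against 6.94% and 9.19% of 7562 genes.

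In lymphoid classes fewer members were called, again 0 of them lower. In CD8 T cells 7 of 10 assessed members were higher, where 8.32% of 7992 genes were higher and 4.4% lower. In CD4 T cells 6 of 10 were higher, against 8.87% of 8316 genes (12.1% lower), and in regulatory T cells 6 of 9, against 6.45% of 8372 genes (6.19% lower). In NK cells 6 of 9 were higher, against 2.75% of 8026 genes (5.33% lower), and in B cells 5 of 9, against 12.1% of 8136 genes (18% lower). In gamma delta T cells 2 of 10 were higher, Ifi206 and Ifi209, against 8.45% of 8281 genes (13% lower).

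RNA of the 6 genes used as monocyte markers was present in the lymphoid classes of both libraries. Ly6c2, found in 92.5% and 81.8% of CD8 T cells, stood there at 1853 and 1217 CPM, beside 1680 and 1672 CPM in monocytes. The sums below are therefore not a measure of monocyte RNA. In CD8 T cells Ccr2 was at 388 and 83.6 CPM, Chil3 at 42.1 and 8.97 CPM and Fn1 at 21.6 and 24.0 CPM. F13a1 was at 18.1 and 9.42 CPM there and Vcan at 15.7 and 4.48 CPM. Of the 6 monocyte markers, those at least 1.5-fold higher for the library labelled cKO were 5 in CD8 T, 4 in CD4 T, 2 in regulatory T, 1 in gamma delta T, 1 in NK and 4 in B cells, while 2 in gamma delta T and 1 in B cells were at least 1.5-fold lower. They summed to 2339 and 1347 CPM in CD8 T cells, 1282 and 722 CPM in CD4 T cells, 1388 and 869 CPM in regulatory T cells, and 1968 and 1499 CPM in gamma delta T cells. The sums were 936 and 762 CPM in NK cells and 327 and 186 CPM in B cells. None of the 6 was at 0 in either library. The 5 myeloid genes C1qa, C1qb, C1qc, Csf1r and Lyz2 summed lower for the library labelled cKO in most lymphoid classes. They were at 215 and 363 CPM in CD8 T, 373 and 515 CPM in CD4 T, and 178 and 463 CPM in gamma delta T cells. NK cells held 187 and 374 CPM of them and B cells 156 and 471 CPM, but regulatory T cells 476 and 473 CPM. Csf1r alone was higher in CD8 T cells, at 31.9 and 18.4 CPM. In lymphoid cells without UMIs of these 5 myeloid genes the number of members called higher was 1 in CD4 T, 2 in regulatory T, 3 in NK and 1 in B cells, 5 in CD8 T cells and 2 in gamma delta T cells. These sets are smaller, such as 121 and 73 regulatory T cells, and no shares over all genes are given for them.

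The median log2 ratio of the assessed members was 1.96 in macrophages and 0.93 in monocytes, beside -0.12 over all genes assessed in each of these classes. Scaled by median-of-ratios size factors, which remove that shift, the family ratio was 3.08 in macrophages and 2.01 in monocytes. Under this scaling 9 of 9 members were higher in monocytes, but no share over all genes is given for it. In cDC2 the members' median log2 ratio was 0.98, beside -0.05 over all genes, and in CD8 T cells 1.00, beside 0.07.

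**Figure D2:**
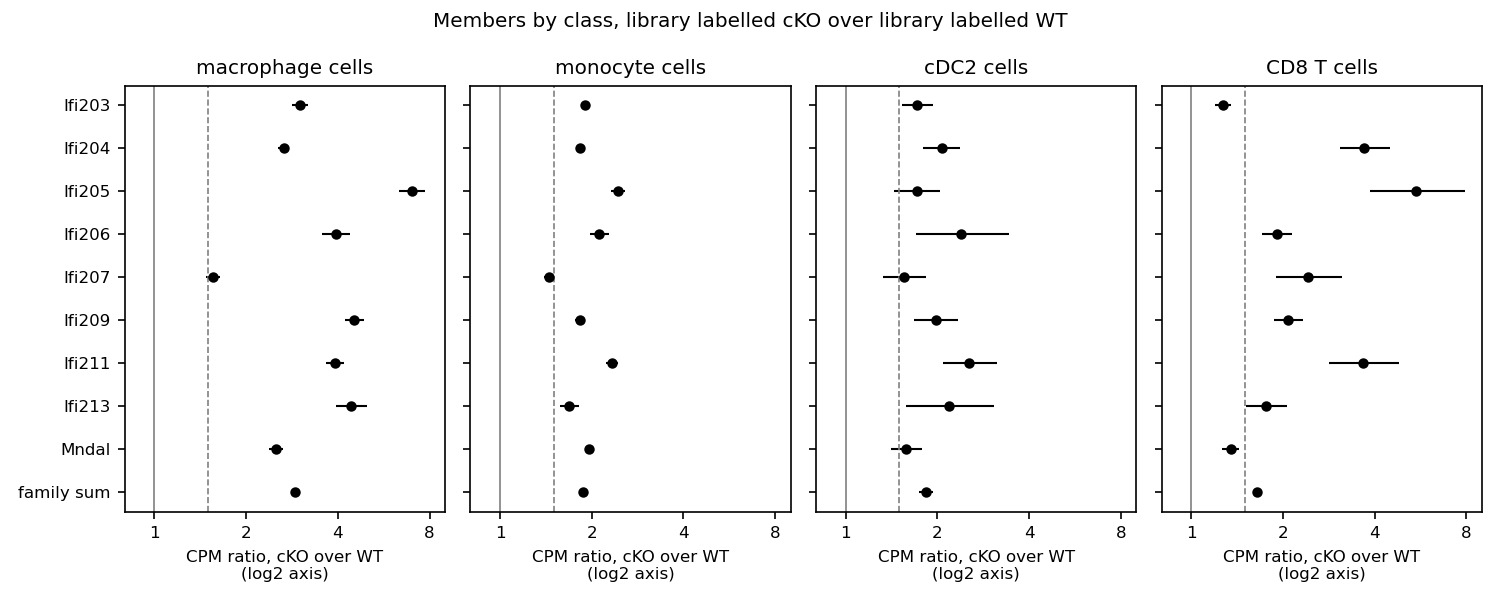
Ratio of CPM, library labelled cKO over library labelled WT (log2 axis), for 9 members and the family sum in 4 classes, with 95% intervals for counting error; the solid line marks 1 and the dashed line 1.5. In macrophages the ratios spread from 1.56 for Ifi207 to 7.0 for Ifi205, whereas in monocytes they lie between 1.44 and 2.44.

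Ifi204 encodes p204, the mouse protein most often set beside human IFI16 as a sensor of cytosolic DNA, and in these cells it was the member with most UMIs in monocytes and macrophages. It stood at 1094 CPM (1081 to 1107) in monocytes of the library labelled cKO and 595 CPM (582 to 609) in those of the library labelled WT, a ratio of 1.84 (1.79 to 1.89). In macrophages it was 757 CPM (734 to 780) and 285 CPM (278 to 293), a ratio of 2.65. The order monocyte, macrophage, cDC2 was the same in both libraries, and each step exceeded the counting error. In cDC2 Ifi204 was at 409 CPM in the library labelled cKO and 198 CPM in the library labelled WT.

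Ifi205, whose product p205 has been linked to control of the inflammasome adaptor Asc in mouse macrophages, had the largest ratio of the family in all macrophages. It was at 239 CPM (227 to 253) in macrophages of the library labelled cKO and 34.2 CPM (31.6 to 37.0) in those of the library labelled WT, 7.0 (6.36 to 7.70). In macrophages without UMIs of Ly6c2 and Ccr2, which stood at 1299 and 262 CPM and at 930 and 242 CPM in all macrophages, the Ifi205 ratio was 1.04 (0.277 to 2.77) and was not called. Its level in macrophages of the library labelled cKO did not differ beyond counting error from that in cDC2 of the same library, at 230 CPM, while cDC2 of the library labelled WT held 134 CPM. Monocytes held 335 CPM in the library labelled cKO and 137 CPM in the library labelled WT, 2.44 (2.31 to 2.57). After cells were thinned to 6752 UMIs, 60.8% of 291 macrophages of the library labelled cKO had an Ifi205 UMI, against 16.4% of 1025 macrophages of the library labelled WT (69.9% and 24.9% before thinning).

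Ifi207, a PYHIN protein with a long repeat region, had the lowest ratio among the assessed members in each of the 3 myeloid classes. It was at 371 CPM in macrophages of the library labelled cKO and 238 CPM in those of the library labelled WT, 1.56 (1.48 to 1.64). In monocytes it stood at 524 and 363 CPM, 1.44 (1.39 to 1.49), the only assessed member not called there, and in cDC2 at 238 and 153 CPM, 1.56 (1.32 to 1.84). Its share of the family's UMIs in macrophages was 12.1% in the library labelled cKO and 22.4% in the library labelled WT. Ifi211, listed in RefSeq also as Mnda, was at 331 and 84.7 CPM in macrophages (3.90, 3.65 to 4.18), 427 and 184 CPM in monocytes (2.33) and 227 and 88.9 CPM in cDC2 (2.55), again the library labelled cKO before the library labelled WT.

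Ifi203 and Mndal, HIN-domain genes whose promoter windows shown above are identical, were at similar levels in all lymphoid classes. Ifi203 ranged there from 313 to 397 CPM in the library labelled cKO and from 248 to 334 CPM in the library labelled WT, and Mndal from 330 to 462 CPM and from 258 to 328 CPM. Neither was called in any lymphoid class, where their ratios ran from 1.03 to 1.44. Both were higher in myeloid cells of the library labelled cKO: in macrophages Ifi203 stood at 386 CPM against 128 CPM in the library labelled WT (3.01, 2.84 to 3.19) and Mndal at 391 against 156 CPM (2.51, 2.37 to 2.65). In macrophages without UMIs of Ly6c2 and Ccr2 the ratio was 1.59 (1.15 to 2.14) for Ifi203 and turned to 0.776 (0.520 to 1.12) for Mndal. In monocytes Ifi203 was at 735 and 387 CPM (1.90) and Mndal at 659 and 336 CPM (1.96). In the library labelled WT, macrophages had the lowest level of both genes among the 9 classes, below every other class beyond counting error.

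Ifi206 was the one member called higher in all 9 classes, by 1.61-fold in CD4 T cells to 3.95-fold in macrophages, but in regulatory T cells without UMIs of 5 myeloid genes its ratio turned from 1.64 to 0.924 (0.609 to 1.44). It was at 145 CPM (135 to 155) in macrophages of the library labelled cKO and 36.7 CPM (34.0 to 39.5) in those of the library labelled WT. In CD8 T cells it stood at 146 CPM (140 to 151) and 76.2 CPM (68.3 to 84.8), a ratio of 1.91, and in gamma delta T cells at 158 and 84.4 CPM, 1.87 (1.51 to 2.31). Within the library labelled WT, its levels in CD4 T cells, gamma delta T cells and monocytes (90.8, 84.4 and 80.9 CPM) did not differ beyond counting error.

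Ifi209, listed in RefSeq also as Pyhin1, was higher in 8 of the 9 classes, the exception being B cells, but in CD4 T cells without UMIs of 5 myeloid genes its ratio turned from 1.84 to 0.953 (0.618 to 1.5). It was at 333 CPM in macrophages of the library labelled cKO and 73.5 CPM in those of the library labelled WT (4.53, 4.22 to 4.86), and at 542 and 297 CPM in monocytes (1.83). In NK cells it was at 153 CPM (146 to 161) and 77.0 CPM (69.8 to 84.7), 1.99 (1.78 to 2.22). In B cells it was at 147 and 121 CPM, 1.22 (0.918 to 1.61).

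Ifi208 and Ifi213, listed in RefSeq also as Pydc3 and Pydc4 for their pyrin domains, shared their promoter window but not their pattern. Ifi213 was found in all 9 classes and was at 119 CPM in macrophages of the library labelled cKO and 26.7 CPM in those of the library labelled WT (4.43, 3.94 to 4.99), and at 75.4 and 42.8 CPM in CD8 T cells (1.76, 1.51 to 2.06). Ifi208 reached 10 CPM only in CD4, CD8 and gamma delta T cells and was called in none of them. It was at 28.3 and 25.4 CPM in CD4 T cells (1.11, 0.701 to 1.79), 20.7 and 18.2 CPM in CD8 T cells (1.14, 0.896 to 1.47) and 20.3 and 30.2 CPM in gamma delta T cells (0.674, 0.432 to 1.05), each time the library labelled cKO first. Regulatory T cells, gated on Foxp3, held 10 and 11 UMIs of it (2.71 and 4.48 CPM), and macrophages 4 and 14 UMIs (0.734 and 0.743 CPM). In B cells Ifi208 had 0 of 679861 UMIs in the library labelled cKO, which allows up to 4.41 CPM, and 2 UMIs in the library labelled WT.

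Macrophages of the 2 libraries differed in monocyte marker RNA. Of 6 monocyte markers, 4 were at least 1.5-fold higher in macrophages of the library labelled cKO, none was at 0 in either library, and their sum was 3174 CPM there and 1046 CPM in the library labelled WT. Ly6c2, a surface protein of classical monocytes, stood at 1299 and 262 CPM, and Ccr2, the receptor that draws monocytes into tissue, at 930 and 242 CPM. Summed cell-cycle markers were at 134 CPM in the library labelled cKO and 484 CPM in the library labelled WT, and summed melanocytic markers, from tumour cells, at 21.8 and 137 CPM.

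Macrophages were then split by these genes, a choice made after the data had been seen. Those with no UMI of Ly6c2 or Ccr2 were 23 cells in the library labelled cKO and 510 in the library labelled WT. In these cells the family stood at 1034 CPM and 771 CPM, a ratio of 1.34 (1.20 to 1.5), and 5 of 9 members were higher, with no share over all genes given for this set. Among the members Ifi206 (3.05, 1.81 to 4.90), Ifi213 (2.84, 1.5 to 4.97) and Ifi209 (2.21, 1.40 to 3.35) had the largest ratios, Ifi205 was at 12.8 and 12.3 CPM (1.04, 0.277 to 2.77) and Mndal at 96.1 and 124 CPM (0.776, 0.520 to 1.12). In macrophages with a UMI of either gene, 303 and 771 cells, the family was at 3196 and 1222 CPM, 2.62 (2.56 to 2.67), and Ifi205 at 253 and 45.9 CPM, 5.51 (4.99 to 6.09). In macrophages without UMIs of the 3 cell-cycle genes the family ratio was 2.66 (2.58 to 2.73). The part of monocyte RNA in the macrophage result was not tested further.

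**Figure D3:**
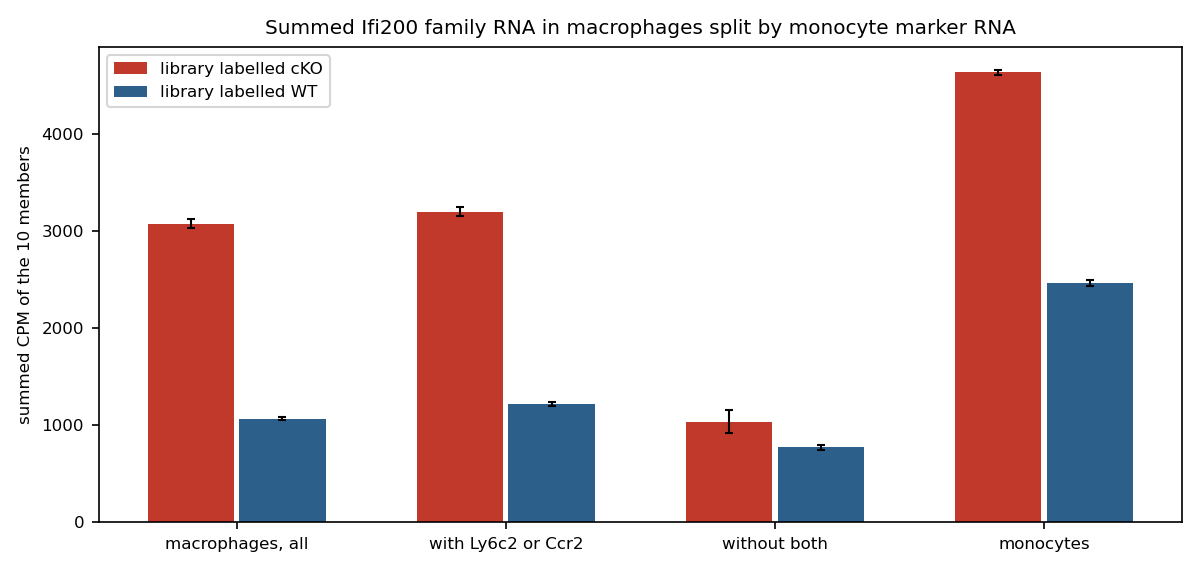
Summed CPM of the 10 members in macrophages, in macrophages with and without UMIs of Ly6c2 and Ccr2, and in monocytes, red for the library labelled cKO and, to its right, blue for the library labelled WT; bars start at 0 and lines are 95% Poisson intervals. The gap of 3072 against 1065 CPM in all macrophages is 1034 against 771 CPM in cells without both genes, of which the library labelled cKO had 23.

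In monocytes the 6 monocyte markers summed to 5476 CPM for the library labelled cKO and 5345 CPM for the library labelled WT, with 0 at least 1.5-fold higher and 1 lower, beside the family's ratio of 1.88. In cDC2 they summed to 1505 and 1093 CPM, again with 0 higher and 1 lower. Melanocytic RNA was lower in monocytes of the library labelled cKO (132 and 618 CPM), and in monocytes without any such UMI the family ratio was 1.81.

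Members differed in how close their lymphoid levels came to those of genes made by myeloid cells. Myeloid RNA was followed by 8 genes, Lyz2, Csf1r, Cd14, Ms4a6c, Cd68, Ctss, Tyrobp and Fcer1g. In CD8 T cells of the library labelled cKO, Ifi204 was at 9.08% of its monocyte level, Ifi205 at 12.4%, Ifi207 at 7.45% and Ifi211 at 11.9%, and the 8 myeloid genes at 2.50% (Lyz2) to 15.9% (Ctss). In CD8 T cells of the library labelled WT the 4 members were at 4.52%, 5.55%, 4.44% and 7.56%, and the myeloid genes at 1.85% (Lyz2) to 11.9% (Ctss). The 4 members thus lay within the range of the myeloid genes in both libraries. Lyz2 and Csf1r were among the genes that the gates of lymphoid cells limited, so their levels are partly set by the gates. The 4 members also lay between Cd14 (6.53% and 3.83%), the lowest of these genes outside the gates, and Ctss. For the classes below, the low end of each range is Lyz2. Ifi206 was at 84.9% of its monocyte level in CD8 T cells of the library labelled cKO and 94.2% in those of the library labelled WT, and Ifi213 at 53.9% and 51.8%, above the range of the myeloid genes. Ifi208 was over 10 times its monocyte level in both (1080% and 2028%).

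In CD4 T cells Ifi204 was at 23.9% and 15.1% of its monocyte level, where the 8 myeloid genes were at 5.06% to 34.2% in the library labelled cKO and 2.81% to 23.8% in the library labelled WT. Regulatory T cells had 23.6% and 10.5% for Ifi204, where these genes were at 5.31% to 43.8% and 2.57% to 29.1%. In those of the library labelled WT, Ifi204 lay below each of these genes except Lyz2, with an interval that overlapped that of Cd14 (12.4%). In NK cells, which make Tyrobp and Fcer1g themselves, the other 6 genes were at 2.21% to 11.2% and 1.94% to 11.5%. Ifi204 (11.9% and 5.56%) and Ifi211 (11.9% and 10.5%) did not differ there beyond counting error from Cd68 in the library labelled cKO (11.2%), and in the library labelled WT both lay below Cd68 (11.5%), Ifi211 with overlapping intervals.

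Shares of B cells with a UMI were set beside that of Csf1r, which B cells should lack and which their gate limited. At 1892 UMIs per cell, 5.03% of 159 B cells in the library labelled cKO and 2.79% of 251 in the library labelled WT had an Ifi204 UMI, and 2.52% and 3.19% had one of Csf1r (median depths of all B cells were 3528 and 2269 UMIs). Because the gate partly sets the Csf1r share, it cannot decide whether the Ifi204 share is expression in B cells, which was not tested. Ifi203 was found in 35.8% and 39.4% of the same cells and Ifi209 in 27.0% and 19.9%. The part of RNA from other cells in the lymphoid ratios of Ifi204, Ifi205, Ifi207 and Ifi211, which reached 5.99 for Ifi205 in NK cells, was not tested beyond the comparison that follows.

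**Figure D4:**
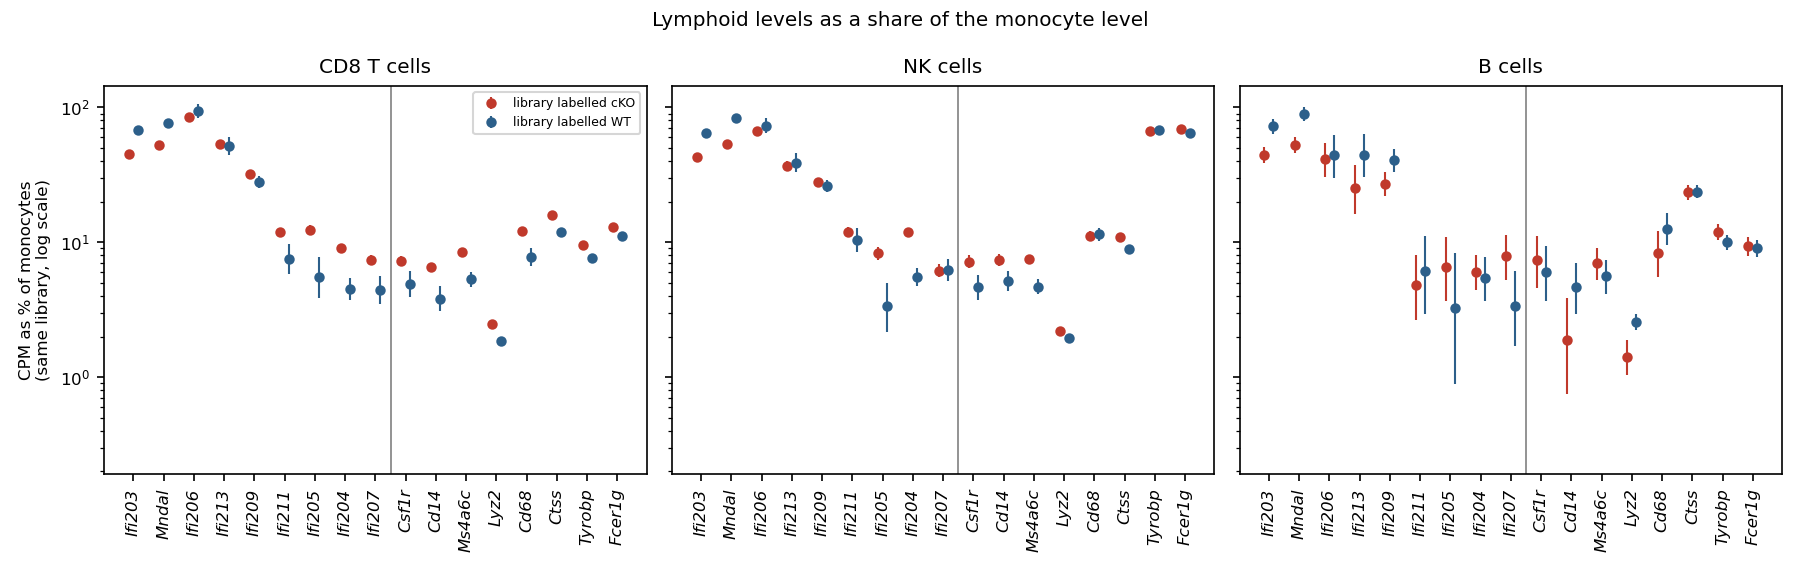
CPM in CD8 T, NK and B cells as a percentage of the monocyte CPM of the same library (log axis), for 9 members and, right of the line, 8 myeloid genes; red is the library labelled cKO, blue to its right the library labelled WT, and bars are 95% intervals for counting error. In CD8 T cells Ifi206 lies near 90% while Ifi204, Ifi205, Ifi207 and Ifi211 lie between 4.44% and 12.4%, within the range of the myeloid genes (1.85% to 15.9%). The low end is Lyz2, which, like Csf1r, the gates of these cells limited.

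Summed melanocytic markers were at 7.22 CPM in CD8 T cells of the library labelled cKO and 353 CPM in those of the library labelled WT. B cells held 4.41 and 969 CPM of them, and 89.5% and 70.4% of B cells had a UMI of Ptprc, the gene of CD45. The part of this RNA in the ratios was not tested; in CD8 T cells without such UMIs the family ratio was 1.58.

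Lymphocytes without a UMI of C1qa, C1qb, C1qc, Csf1r or Lyz2, again chosen after the data had been seen, had lower family ratios. Among CD8 T cells, 981 in the library labelled cKO and 172 in the library labelled WT, the family was at 1182 and 816 CPM, 1.45 (1.34 to 1.57), with Ifi206 at 158 and 85.9 CPM (1.84, 1.45 to 2.37) and Ifi209 at 163 and 87.0 CPM (1.88, 1.48 to 2.41). Ifi204 was at 27.8 and 9.41 CPM (2.95, 1.47 to 6.92), and Ifi207 at 5.81 and 4.70 CPM (1.23, 0.450 to 4.73). Ifi211 held 144 UMIs in these CD8 T cells of the library labelled cKO and 3 in those of the library labelled WT (5.27, 1.77 to 25.8), and Ifi205 43 and 0 UMIs.

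In such NK cells the family ratio was 1.25 (1.17 to 1.34), with Ifi204 at 61.1 and 20.8 CPM (2.94, 1.99 to 4.53) and Ifi206 at 106 and 53.8 CPM (1.97, 1.53 to 2.56). Ifi211 was at 21.8 and 9.23 CPM (2.37, 1.31 to 4.71), Ifi207 at 9.17 and 11.5 CPM (0.795, 0.439 to 1.52), and Ifi205 held 25 and 1 UMIs. The intervals of Ifi204, Ifi206 and Ifi211 thus lay above 1 and that of Ifi207 held 1. In CD4 T cells the ratio was 1.24 (1.08 to 1.44). The interval held 1 in regulatory T cells (1.11, 0.974 to 1.27), gamma delta T cells (1.11, 0.974 to 1.26) and B cells (1.08, 0.915 to 1.29). Regulatory T cells in this comparison were 121 and 73 cells, in which Ifi206 stood at 106 and 115 CPM (0.924, 0.609 to 1.44). For Ifi209 in CD4 T cells, 108 and 83 cells, the values were 106 and 112 CPM (0.953, 0.618 to 1.5).

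Single monocytes, macrophages and cDC2 carried several members at once. Thinned to 5605 UMIs, monocytes held a median of 7 of the 10 members in the library labelled cKO and 6 in the library labelled WT, and 87.7% and 66.7% of cells had 5 or more. Thinned to 6752 UMIs, macrophages held a median of 7 and 4 members, and 82.5% and 33.3% had 5 or more (86.8% and 56.4% without thinning). In cDC2, thinned to 7212 UMIs, the median was 6 and 5 members. CD8 T cells, at 3517 UMIs, held a median of 2 in both libraries, and 13.4% and 3.15% had 5 or more. B cells, at 1892 UMIs, held a median of 1 in both, regulatory T cells a median of 2 in both, and CD4 T, gamma delta T and NK cells a median of 2 in the library labelled cKO and 1 in the library labelled WT. In gamma delta T cells 2.35% and 4.30% had 5 or more, the library labelled WT being higher there.

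Other genes of DNA sensing, 35 listed by name and 32 present, had median ratios near 1 with some members far from it. In macrophages 6 of 27 assessed were higher for the library labelled cKO and 7 lower (11.2% and 16.8% of all genes), with a median log2 ratio of 0.07. In monocytes 6 of 25 were higher and 0 lower (3.72% and 6.88% of all genes), with a median of 0.01. Those higher in both classes were Zbp1, a sensor of Z-form nucleic acid (376 and 88.8 CPM in macrophages), Irf7, a transcription factor of the interferon response (576 and 169 CPM), Samhd1, which degrades deoxynucleotides (670 and 206 CPM), and Tmem173, which encodes STING (ratios of 1.82 in macrophages and 1.59 in monocytes). Aim2, the PYHIN gene of the DNA inflammasome, stood at 34.3 and 32.6 CPM in macrophages (1.05, 0.888 to 1.24), while Ifi214, another PYHIN gene, was at 33.2 and 9.81 CPM (3.38).

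Of the listed interferon-induced genes outside the family, 24 of 24 were higher in macrophages of the library labelled cKO (11.2% of all genes). In monocytes 20 of 24 were higher (3.72% of all genes) and in cDC2 20 of 24 (6.94%). Among lymphoid classes, 22 of 23 were higher in CD8 T cells (8.32% of all genes), 16 of 24 in CD4 T (8.87%) and 20 of 24 in regulatory T cells (6.45%). In gamma delta T cells 19 of 24 were higher (8.45%), in NK cells 21 of 24 (2.75%) and in B cells 11 of 23 (12.1%). The count lower was 0 except for 2 in B cells (Rsad2 and Bst2), where 18% of all genes were lower. In the other classes 4.4% (CD8 T) to 16.8% (macrophages) of all genes were lower. The list's median log2 ratio was 1.58 in macrophages and 1.13 in monocytes, where the family's was 1.96 and 0.93. Isg15, a ubiquitin-like interferon product, stood at 339 and 50.6 CPM in macrophages and Gbp2, an interferon-gamma induced GTPase, at 574 and 75.7 CPM.

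Of 15 interferon receptor and signalling genes, 6 were higher in macrophages (11.2% of all genes) and 4 in monocytes (3.72%). In each of the 9 classes 0 of them were lower, where 4.4% (CD8 T) to 18% (B) of all genes were lower. Irf1, a transcription factor induced by interferon gamma, was at 215 CPM in macrophages of the library labelled cKO and 65.9 CPM in those of the library labelled WT. Among 5 ligands, Ifng, made by T and NK cells, was at 550 and 196 CPM in CD8 T cells (2.80) and 253 and 125 CPM in CD4 T cells (2.01), but at 200 and 207 CPM in NK cells (0.967, 0.899 to 1.04) and with a ratio of 1.08 in regulatory T cells. Ifnb1 was at 57.4 and 42.6 CPM in macrophages (1.35, 1.18 to 1.54), 54.3 and 52.4 CPM in monocytes (1.04, 0.942 to 1.14), and lower in cDC2 (6.07 and 18.4 CPM, 13 and 25 UMIs).

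Across the 9 classes in both libraries, 18 points that share libraries and depth, the genes outside the family whose log2 level ran most like the summed family were Daxx (Pearson r 0.977), Gbp2 (0.963), Trafd1 (0.960), Ifit2 (0.958), Trim30a (0.956), Irf7 (0.952), March5 (0.943), Tmem184b (0.942), Tor1aip1 (0.940) and Slfn5 (0.935), out of 5046 genes ranked. Within the family, Ifi211 (0.929) and Ifi209 (0.927) ran most like the sum of the other members, Ifi206 less so (0.473), and Ifi208 ran the other way (-0.366).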

How the data were processed

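The deposited files hold UMI counts for every gene in every barcode of each library, not normalized by the authors. Per the submitters' processing notes, Cell Ranger 5.0.1, Seurat 4.0.4 and mm10 were used. The version in the header of the matrices is cellranger 5.0.0. The sources used here do not give the counting options. The labels name a 5′ library kit, which was not checked against reads. The members, gene lists and marker gates were chosen with earlier results of these data known.

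Cells with under 200 genes or over 10% mitochondrial UMIs were left out. Gates required 2 or 3 lineage markers and limited UMIs of other lineages to 2 (myeloid) or 0.2 per 1000 UMIs, which also stood in for a doublet caller, and none was run. The myeloid limit on lymphoid cells was counted on C1qa, C1qb, C1qc, Csf1r and Lyz2. Macrophages needed C1qa, C1qb and C1qc at 1 per 1000 UMIs and Csf1r or Adgre1, monocytes 3 monocyte genes with less C1q. Among kept cells, 2077 and 2005 T-gated cells without a subtype and 2362 and 4522 others stayed unnamed under the gates planned first. The widened NK gate was applied apart from these labels, so its NK cells include cells counted here as T-gated without a subtype. It did not exclude gamma delta T cells, so a cell could count in both classes. Ncr1, an NK receptor gene, was found in 22.0% and 8.73% of gamma delta T cells.

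For each class, UMIs were added up by library and scaled to CPM. UMIs count molecules, so gene length was not corrected for. Ratios have exact conditional binomial intervals, CPM exact Poisson and shares Clopper-Pearson intervals (95%), a count of 0 was given a limit of 3 UMIs, and counts under 3 UMIs were set to 3 for calls. All members were named in every compared class. Genes most alike were the 10 of at least 50 CPM with the highest correlation of log2(CPM + 1). Promoters and names came from RefSeq (GRCm38.p6) and coordinates from GENCODE. The computations were tested on simulated data and used Python 3.11.15, NumPy 2.4.6, SciPy 1.17.1 and pandas 2.3.3. Alternatives covered cell filters, gates, depth, scaling, pooling, pseudocount and the filter on low values.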

Additional observations from a re-analysis of the deposited data

How the results depend on the processing

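No paired analysis was possible because each label has 1 library. The spread between animals is unknown, values under about 10 CPM rest on few UMIs, and B cells had the fewest (a median of 3528 and 2269 UMIs per cell). Family ratios stayed above 1 in every class and alternative run, of which 65 lay inside the counting interval of the reported value, 17 above it and 44 below. Of the members' ratios, 938 lay inside, 51 above and 155 below. All 138 shares of cells that moved were higher without thinning. Thinning removes UMIs, so this direction is no check of the shares.

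With every cell weighted equally, the family ratio was 2.73 in macrophages, 1.77 in monocytes, 1.53 in CD8 T, 1.5 in CD4 T, 1.60 in regulatory T, 1.28 in gamma delta T, 1.38 in NK and 1.08 in B cells. With median-of-ratios size factors it was 3.08 in macrophages, 2.01 in monocytes, 1.57 in CD8 T and 1.65 in NK cells. In cells thinned to 1 depth it was 2.80 in macrophages, 1.78 in monocytes, 1.73 in cDC2, 1.56 in CD8 T, 1.64 in CD4 T, 1.70 in regulatory T, 1.35 in NK and 1.16 in B cells, and 2 members were lower in gamma delta T cells. With at most 5% mitochondrial UMIs the ratio in B cells was 1.58. Without the deepest 10% of cells it was 1.76 in monocytes, 1.5 in CD8 T, 1.66 in regulatory T, 1.26 in gamma delta T, 1.30 in NK and 1.05 in B cells. Strict gates gave 2.80 in macrophages, 1.91 in monocytes, 1.71 in cDC2 and 1.73 in CD8 T cells, and gates on cells thinned to 3000 UMIs 2.57 in macrophages, 1.83 in monocytes, 1.60 in cDC2, 1.52 in CD8 T, 1.57 in CD4 T and 1.45 in NK cells. With lineage limits doubled it was 1.84 in CD8 T, 1.98 in CD4 T, 1.98 in regulatory T, 1.69 in NK and 1.62 in B cells. Without cell-cycle UMIs it was 2.66 in macrophages, 1.84 in monocytes, 1.72 in CD8 T, 1.44 in CD4 T, 1.96 in regulatory T and 1.41 in NK cells. The cause of these shifts was not tested.

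The following were chosen after seeing the data. Without melanocytic UMIs the family ratio was 2.83 in macrophages, 1.81 in monocytes, 1.96 in cDC2, 1.58 in CD8 T, 1.27 in gamma delta T and 1.5 in NK cells. Macrophages without Ly6c2 and Ccr2 gave 1.34 and those with either 2.62. Lymphoid cells without myeloid UMIs gave 1.45 in CD8 T, 1.24 in CD4 T, 1.11 in regulatory T, 1.25 in NK and 1.08 in B cells. Leaving out the shared barcodes moved no family ratio outside its interval.

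Counts under 3 UMIs were set to 3 for calls. No shares over all genes are given for the alternatives that follow. The number of members higher in gamma delta T cells was 1 with a pseudocount of 10 CPM, 1 with at most 5% mitochondrial UMIs and 4 without the deepest cells. In B cells it was 2 without the deepest cells, 3 with gates on thinned cells, 2 among members of at least 50 CPM and 1 without myeloid UMIs. Without myeloid UMIs it was also 1 in CD4 T, 2 in regulatory T and 3 in NK cells, and it was 5 in macrophages without Ly6c2 and Ccr2. Members were lower in gamma delta T cells with strict gates (1), gates on thinned cells (1), no melanocytic UMIs (1), no Ncr1 or Klrb1c UMIs (2) and no myeloid UMIs (1), in B cells with strict gates (1), gates on thinned cells (1) and no myeloid UMIs (1), and in regulatory T cells with no filter on low values (1) and no myeloid UMIs (2).

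Among members called in the reported values, the direction turned for Ifi211 in B cells with strict gates (0.620) and with gates on thinned cells (0.613), Mndal in macrophages without Ly6c2 and Ccr2 (0.776), and, without myeloid UMIs, Ifi209 in CD4 T cells (0.953) and Ifi206 in regulatory T cells (0.924). A further 13 ratios that were not called, most of them in gamma delta T and B cells, lay on both sides of 1 across the alternatives.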

Other observations

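Classes with under 100 cells in a library were left out of the comparisons. In type 1 conventional dendritic cells (53 cells in the library labelled cKO and 35 in the library labelled WT), which cross-present antigen, Ifi205 was at 555 CPM (514 to 598) and 341 CPM (291 to 397), above its level in monocytes of the same libraries. The family sum there was 2956 and 1532 CPM. In plasmacytoid dendritic cells (53 and 206 cells), which make type I interferon, Ifi203 was at 315 and 213 CPM and Mndal at 297 and 242 CPM, but Ifi206 had 0 and 5 UMIs and Ifi213 4 and 14 UMIs. The 0 of 545638 UMIs for Ifi206 allows up to 5.50 CPM, where gamma delta T cells of that library held 158 CPM.

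In neutrophils (23 and 111 cells), Ifi204 was at 616 CPM (464 to 802) and 279 CPM (217 to 353). Neutrophils of the library labelled WT held 69 UMIs of Ifi204 and 28 of Ifi207, and at most 6 of each other member. Cells that passed the gate for mature dendritic cells (54 and 94) stayed unnamed, because Ptprc, the gene of CD45, was found in 60.6% of those in the library labelled WT and Mlana, a melanocytic gene, was among the leading genes of those in the library labelled cKO.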
